A study of Homo sapiens with 6 samples.

Results

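The genes described here are 30 transcriptional targets of p53, picked out of the 58735 genes of the deposited FPKM table by their gene symbol. FPKM is the number of fragments scaled to gene length and to the size of the library. All 30 symbols were found, and 28 of the genes passed the filter on low values (FPKM of at least 1 in at least 2 of the 6 libraries) and were tested. TIGAR was under that filter, and SPATA18 was listed at 0 in all 6 libraries. The libraries came from KYSE30, an established human cell line from an oesophageal squamous cell carcinoma, which had been transfected with siRNA at 100 nM. The si-NC group (2 libraries) received a control siRNA and was the reference named by the study. The si-RAB23-1 group and the si-RAB23-9 group (2 libraries each) received different siRNAs against RAB23, a small GTPase of the Rab family, and the study asked which transcripts change when RAB23 is lowered. All 3 groups were transfected with the same reagent and harvested for total RNA at approximately 80% confluence, and no group was left untransfected. Per the labels, each group has biological replicates, but separate cultures are not named, so the p-values refer to differences among these libraries that may include technical ones. The sources used here give neither the siRNA sequences nor the time from transfection to harvest.

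The protein p53 is a transcription factor that is kept scarce by the ubiquitin ligase MDM2 and accumulates when DNA is damaged or growth signals are abnormal. It binds pairs of a short palindromic element near its target genes, and the targets then hold the cell cycle, repair DNA, alter metabolism, start apoptosis or feed back on p53 itself. In squamous epithelium the related factor p63 maintains the lineage and can bind many of the same elements.

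The elements by which p53 recognises DNA could be read directly in some of the promoters. RefSeq promoters on GRCh38.p14, from 250 bases before to 50 bases after the start, were available for 24 of the 30 genes, as 35 promoters. The 10-base p53 element, which is palindromic and so covers both strands, occurred without a mismatch in 6 of the 35 promoters (17.1%), against 6.63% of all 35116 promoters of that length. An adjacent pair of elements, with up to 2 mismatches in all and a spacer of up to 13 bases, occurred in 3 of 35 (8.57%), against 1.46% of all promoters. The pairs are shown because a pair is what p53 is known to bind. Capitals mark the elements and lower case the spacer.
DDB2 at chr11:47214979-47214999, + strand, no mismatch: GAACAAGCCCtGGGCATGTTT
AEN at chr15:88621306-88621325, + strand, 2 mismatches: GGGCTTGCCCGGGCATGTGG
FAS at chr10:88991309-88991328, + strand, 2 mismatches: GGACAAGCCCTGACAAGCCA
The pair in DDB2, which encodes a sensor of ultraviolet damage, was 1 of only 10 pairs without a mismatch among the 35116 promoters. Single elements are shown for a mitochondrial reductase, a cell cycle kinase and a sestrin whose values are given further on, with 10 flanking bases in lower case.
FDXR at chr17:74872986-74873015, - strand: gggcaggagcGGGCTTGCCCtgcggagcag
PLK2 at chr5:58460199-58460228, - strand: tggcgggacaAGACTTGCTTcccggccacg
SESN1 at chr6:109009018-109009047, - strand: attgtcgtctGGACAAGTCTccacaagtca
Genes without a match here include CDKN1A and MDM2, whose known p53 elements lie outside so short a window, so a missing match says only that the letters are not in these bases.

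The 6 libraries held 17211025 to 24178125 recovered reads each. RAB23 itself (chromosome 6, 57186992 to 57222314, GRCh38) was at 3.27 and 3.33 FPKM under si-NC, 1.03 and 1.10 under si-RAB23-1 and 1.18 and 1.27 under si-RAB23-9. It fell with both siRNAs (log2 difference -1.06 and -0.95, limma adjusted p = 0.00314 and 0.00392), which checks the labels. Of 14 markers of squamous epithelium 13 passed the filter. So did 2 of 10 markers of fibroblasts, 0 of 10 of leukocytes, 1 of 8 of endothelium and 0 of 9 of columnar epithelium. At 0 throughout were 4 of the fibroblast list (COL1A2, DCN, LUM and PDGFRA) and 3 of the leukocyte list (CD3D, MS4A1 and FCGR3A). The summed FPKM of the squamous list was 927 to 962 with si-NC, 994 to 1011 with si-RAB23-1 and 855 to 857 with si-RAB23-9. The single markers did not all follow the sum. At a limma adjusted p under 0.05, 5 of the 13 rose and 0 fell with si-RAB23-1 (median log2 difference 0.26). With si-RAB23-9, 4 rose and 3 fell (median 0.02). The summed FPKM of 20 interferon-induced genes was 330 to 354 with si-NC, 369 to 378 with si-RAB23-1 and 681 to 691 with si-RAB23-9. What part these shifts have in the results below was not tested. In bulk RNA, fewer cells expressing a gene and less of its RNA per cell cannot be told apart.

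In control-transfected cells the p53 targets spanned a wide range of abundance. Mean FPKM with si-NC ran from 2.25 to 109 over the 28 genes tested, with a median of 10.8. CDKN1A, which encodes an inhibitor of cyclin-dependent kinases, was the most abundant of them. GADD45A (42.2 ± 1.11 FPKM, SD, n = 2), GDF15 (37.9 ± 2.52), BAX (37.3 ± 0.432), PHLDA3 (35 ± 1.51), TNFRSF10B (34.6 ± 0.857) and PLK2 (34 ± 0.62) formed the next group. The libraries of BAX lay within the range of GDF15, those of TNFRSF10B within the range of PHLDA3, and those of PLK2 overlapped TNFRSF10B. Both libraries of GADD45A lay above those of GDF15, and both of BAX above those of PHLDA3. FAS, the death receptor, and PPM1D, a phosphatase that switches off the p53 response, were lowest, at 2.25 ± 0.149 and 2.78 ± 0.00803. TIGAR, which encodes a phosphatase that lowers glycolytic flux, had 0.803 and 0.866 FPKM under si-NC, 0.691 and 0.795 under si-RAB23-1 and 0.619 and 0.505 under si-RAB23-9. Its si-RAB23-9 libraries were the lowest, with 47 and 36 reads. Without the filter its difference from si-NC was -0.23 (limma adjusted p = 0.421), and 45.6% of its exonic bases are shared with other genes, so its reads are uncertain.

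**Figure D1:**
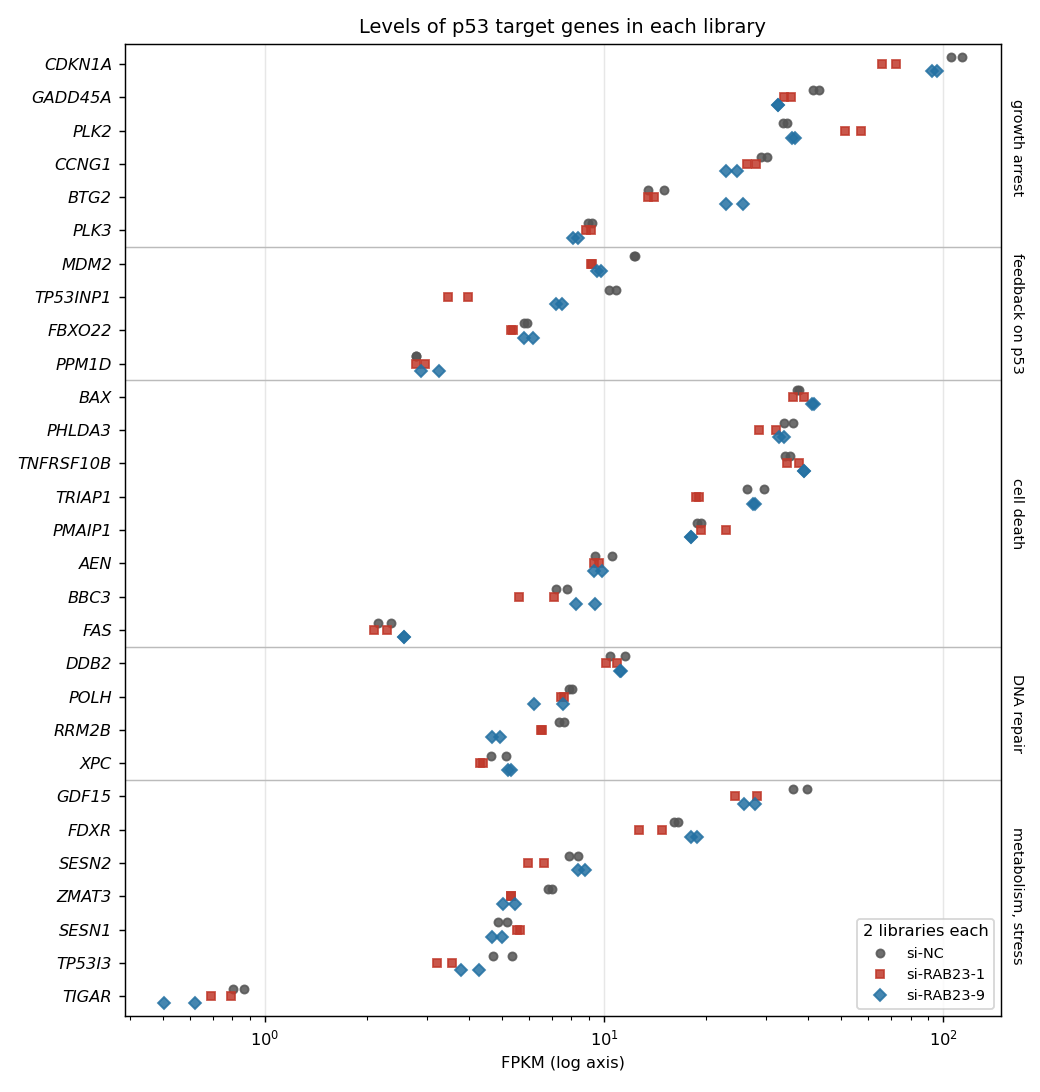
FPKM (log axis) of the 28 tested p53 target genes and TIGAR in each of the 6 libraries, arranged by the role of the gene product. Points are single libraries, with shape and colour by group, and SPATA18, listed at 0, is not drawn. TP53INP1 shows the widest separation of the groups, and CDKN1A lies at the top of the range with its si-RAB23-1 libraries below the others.

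With si-RAB23-1 the p53 targets were mostly lower than with si-NC. Of 28 genes 9 fell (32.1%) and 1 rose (3.57%), where limma called 7.26% of all 14352 genes tested lower, 8.13% higher and 15.4% in either direction. Over all genes that is 1167 higher and 1042 lower, a split that turned to 1622 higher and 2178 lower with voom on library totals, where 14 p53 targets fell. The median log2 difference of the 28 was -0.13, against 0.01 over all genes tested. Called or not, 22 of the 28 differences were negative, against 6905 of 14352 over all genes. A gene was called at an adjusted p under 0.05 (limma on log2(FPKM + 1), Benjamini-Hochberg over all genes tested). All log2 differences are on that scale, on which low genes appear to change less than they did. By role, the genes that fell were 2 of 6 for growth arrest, 2 of 4 for feedback on p53, 1 of 8 for cell death, 0 of 4 for DNA repair and 4 of the 6 tested for metabolism and stress. The gene that rose was PLK2.

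**Figure D2:**
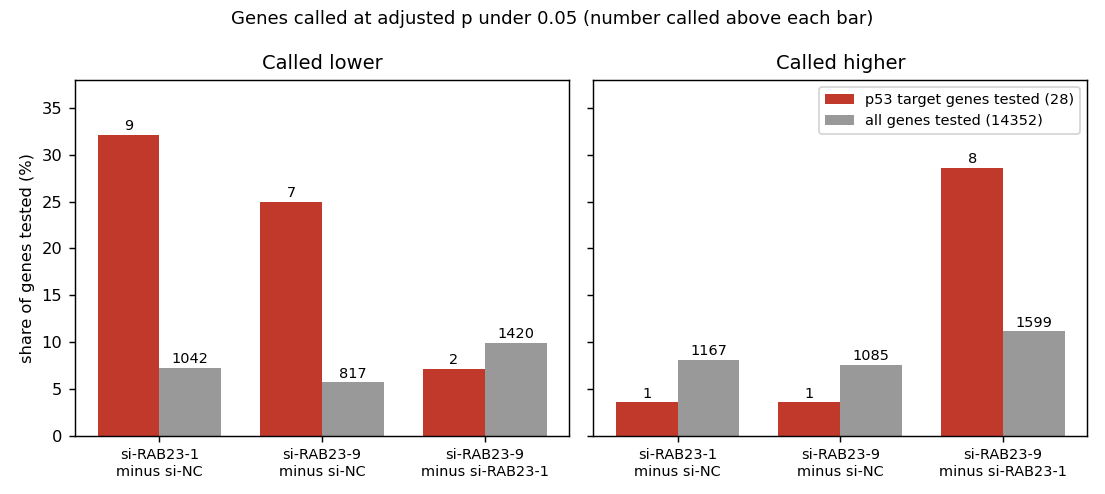
Share of genes called lower and higher (percent of genes tested) in each of the 3 comparisons, in red for the 28 p53 target genes and in grey for all 14352 genes tested, with the number called above each bar. In the comparison of si-RAB23-1 with si-NC the bar for the p53 target genes called lower stands at 32.1%, beside 7.26% for all genes. The 2 sets are not matched in abundance.

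TP53INP1 showed the largest decrease of the set. The gene (chromosome 8) encodes a stress protein that promotes phosphorylation of p53 and takes part in autophagy. Its FPKM was 10.3 and 10.8 under si-NC, 3.47 and 3.98 under si-RAB23-1 and 7.52 and 7.23 under si-RAB23-9. The 3 groups did not overlap. The mean with si-RAB23-1 was 0.352 times that with si-NC, a log2 difference of -1.30 ± 0.0661 (SE, limma adjusted p = 0.00184).

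CDKN1A (ENSG00000124762, chromosome 6, 36676460 to 36687339) fell as well. It measured 113 and 106 FPKM under si-NC, 65.9 and 72.3 under si-RAB23-1 and 92.6 and 96.0 under si-RAB23-9, so the groups did not overlap and si-RAB23-9 lay between the others. The difference of si-RAB23-1 from si-NC was -0.66 ± 0.0577 (limma adjusted p = 0.00383). MDM2 (chromosome 12, 68808176 to 68850686), the ubiquitin ligase that marks p53 for degradation, was at 12.2 and 12.3 FPKM under si-NC and 9.21 and 9.16 under si-RAB23-1. Its si-RAB23-9 libraries had 9.77 and 9.54. Both RAB23 siRNA groups lay below si-NC, and the difference with si-RAB23-1 was -0.38 ± 0.0385 (limma adjusted p = 0.00511). Of the exonic bases of MDM2 9.21% are shared with neighbouring genes, and of those of CDKN1A 4.79% with DINOL on the opposite strand. TRIAP1 (chromosome 12, 120443961 to 120446412), a small mitochondrial protein that restrains apoptosis, had 26.4 and 29.7 FPKM under si-NC, 19.1 and 18.7 under si-RAB23-1 and 27.8 and 27.5 under si-RAB23-9. Its si-RAB23-1 libraries stood below the other 4, with a difference from si-NC of -0.54 ± 0.0590 (limma adjusted p = 0.00573).

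PLK2 (chromosome 5, 58453982 to 58460260), a polo-like kinase of the cell cycle, moved the other way. It measured 33.6 and 34.5 FPKM under si-NC, 57.0 and 51.1 under si-RAB23-1 and 35.7 and 36.6 under si-RAB23-9. The si-RAB23-1 libraries stood above the other 4, with a difference from si-NC of 0.65 ± 0.0563 (limma adjusted p = 0.00363). Its relative PLK3 was at 9.20 and 8.94 FPKM under si-NC and 8.85 and 9.14 under si-RAB23-1, a difference of -0.01 with a 95% interval from -0.12 to 0.10. The calls of TP53INP1, CDKN1A, MDM2, TRIAP1 and PLK2 were kept in all 6 fits that left out 1 library.

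A further 5 genes fell with si-RAB23-1 by calls that were not kept in every fit that left out 1 library. Leaving out a library of a compared group also lowered the share called over all genes, so lost calls are not particular to these genes. The differences themselves kept their sign in those fits, GADD45A from -0.31 to -0.24 and GDF15 from -0.62 to -0.41. GDF15 (chromosome 19, 18374731 to 18389176), a secreted stress cytokine, was at 39.7 and 36.1 FPKM under si-NC, 24.2 and 28.2 under si-RAB23-1 and 25.8 and 27.8 under si-RAB23-9. Both siRNA groups lay below si-NC and overlapped each other, and the difference with si-RAB23-1 was -0.52 ± 0.0856 (limma adjusted p = 0.0171, and 0.0920 or 0.0620 without si-NC replicate 1 or 2). GADD45A (chromosome 1, 67685061 to 67688338), a stress protein of growth arrest and repair, had 42.9 and 41.4 FPKM under si-NC, 35.4 and 33.9 under si-RAB23-1 and 32.5 in both libraries under si-RAB23-9. The groups did not overlap, and the difference with si-RAB23-1 was -0.27 ± 0.0386 (limma adjusted p = 0.0113, and 0.0766 or 0.0574 without si-NC replicate 1 or 2).

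ZMAT3 (chromosome 3, 179017223 to 179072279), an RNA-binding protein that alters splicing, was at 6.83 and 7 FPKM under si-NC, 5.31 and 5.29 under si-RAB23-1 and 5.47 and 5.02 under si-RAB23-9. Both siRNA groups lay below si-NC, with a difference of -0.33 ± 0.0527 for si-RAB23-1 (limma adjusted p = 0.0158). That call was lost without si-NC replicate 1 (0.0827), si-NC replicate 2 (0.0964) or si-RAB23-1 replicate 1 (0.0576). TP53I3 (chromosome 2, 24077433 to 24085861), a quinone oxidoreductase-like enzyme, had 4.69 and 5.33 FPKM under si-NC, 3.21 and 3.56 under si-RAB23-1 and 4.26 and 3.78 under si-RAB23-9. The si-RAB23-1 libraries were lowest, with a difference of -0.45 ± 0.0844 (limma adjusted p = 0.0229), lost without si-NC replicate 1 (0.0651), si-NC replicate 2 (0.116) or si-RAB23-1 replicate 1 (0.0886). SESN2 (chromosome 1, 28259527 to 28282491), a sestrin that restrains growth signalling under nutrient stress, was at 7.90 and 8.36 FPKM under si-NC, 5.94 and 6.66 under si-RAB23-1 and 8.36 and 8.76 under si-RAB23-9. Its si-RAB23-1 libraries lay below the other 4, with a difference of -0.32 ± 0.0639 (limma adjusted p = 0.0271), and this call was kept only without si-RAB23-1 replicate 2, the others giving 0.0550 to 0.139.

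**Figure D3:**
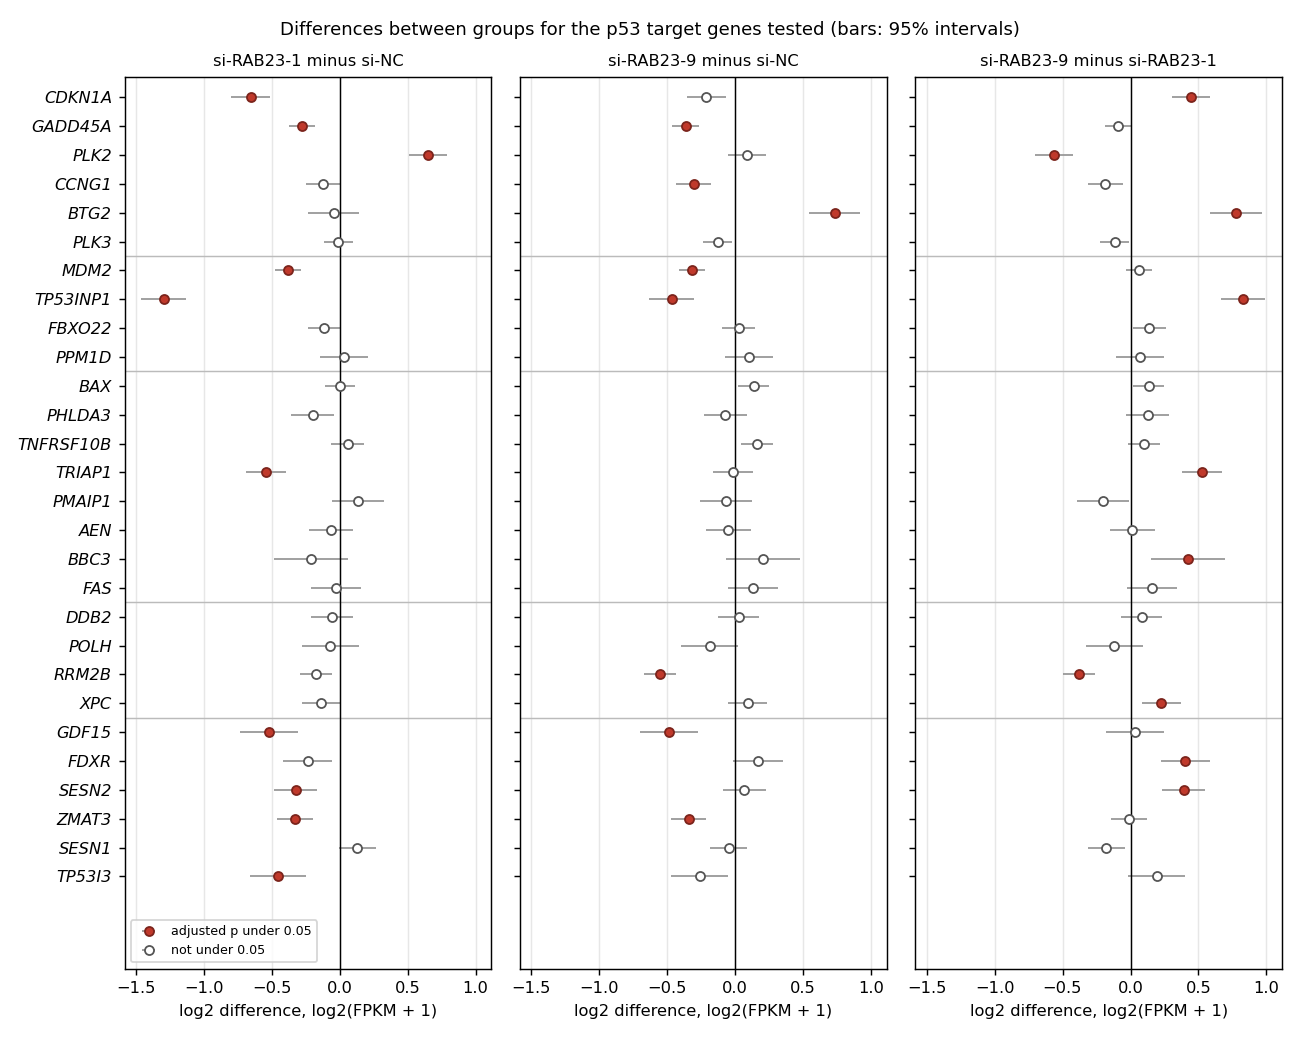
Log2 difference in log2(FPKM + 1) for each of the 28 tested p53 target genes in the 3 comparisons, ordered by role, with 95% intervals from the limma fit. Filled points have an adjusted p under 0.05. TP53INP1 at -1.30 is the lowest point with si-RAB23-1, PLK2 at 0.65 the only filled point above 0 there, and BTG2 at 0.73 the only one above 0 with si-RAB23-9.

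With si-RAB23-9 most of the p53 targets called were again lower than with si-NC, while the set as a whole lay near 0. Of 28 genes 7 fell (25%) and 1 rose (3.57%), where limma called 5.69% of all genes tested lower, 7.56% higher and 13.3% in either direction. The median log2 difference of the 28 was -0.05, against 0.01 over all genes tested. Called or not, 16 of 28 differences were negative, against 6958 of 14352 over all genes. The median of the 28 turned to 0.01 without si-NC replicate 2. The genes that fell were 2 of 6 for growth arrest, 2 of 4 for feedback on p53, 0 of 8 for cell death, 1 of 4 for DNA repair and 2 of the 6 tested for metabolism and stress. The 2 comparisons share the si-NC libraries, so the sets of genes called in them are not independent.

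BTG2 was the gene that rose with si-RAB23-9. BTG2 (chromosome 1, 203305491 to 203309602), an antiproliferative protein that speeds the removal of mRNA tails, measured 13.4 and 15.0 FPKM under si-NC, 13.4 and 14.1 under si-RAB23-1 and 22.9 and 25.7 under si-RAB23-9. Both si-RAB23-9 libraries stood above the other 4, and si-NC and si-RAB23-1 overlapped. The difference from si-NC was 0.73 ± 0.0767 (limma adjusted p = 0.00609). RRM2B (chromosome 8), the p53-inducible small subunit of ribonucleotide reductase, which makes deoxynucleotides for repair, had 7.37 and 7.63 FPKM under si-NC, 6.54 and 6.51 under si-RAB23-1 and 4.91 and 4.65 under si-RAB23-9. The 3 groups did not overlap. Its difference with si-RAB23-9 was -0.56 ± 0.0474 (limma adjusted p = 0.00392), and with si-RAB23-1 it was -0.18 (limma adjusted p = 0.0615). The calls of BTG2 and RRM2B with si-RAB23-9 were kept in all 6 fits that left out 1 library.

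The calls of the other 6 decreases with si-RAB23-9 were not kept in every fit that left out 1 library. The differences themselves kept their sign in those fits, MDM2 from -0.33 to -0.30 and GDF15 from -0.55 to -0.42. TP53INP1 at 0.697 times its si-NC mean gave a log2 difference of -0.47 ± 0.0661 (limma adjusted p = 0.0117), lost without either si-NC or either si-RAB23-9 library (0.0636 to 0.0822). GDF15 gave -0.49 ± 0.0856 (limma adjusted p = 0.0213), lost without any of the same 4 libraries (0.0722 to 0.111). ZMAT3 gave -0.34 ± 0.0527 (limma adjusted p = 0.0149), also lost without any of those 4 (0.0529 to 0.0956). MDM2 gave -0.32 ± 0.0385 (limma adjusted p = 0.00845), lost likewise (0.0545 to 0.0726). GADD45A gave -0.36 ± 0.0386 (limma adjusted p = 0.00611), lost without si-NC replicate 1 (0.0501), si-RAB23-9 replicate 1 (0.0517) or si-RAB23-9 replicate 2 (0.0586). These 5 genes were the only ones of the 28 called lower against si-NC with both siRNAs, and 0 were called higher with both. How many of all genes tested were called with both is not given here, so these numbers have no background beside them.

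CCNG1 (chromosome 5, 163437569 to 163446151), a cyclin that recruits a protein phosphatase to MDM2, was at 29 and 30.1 FPKM under si-NC, 27.9 and 26.3 under si-RAB23-1 and 24.6 and 22.9 under si-RAB23-9. The groups did not overlap and the order was si-NC, si-RAB23-1, si-RAB23-9. The difference with si-RAB23-9 was -0.31 ± 0.0521 (limma adjusted p = 0.0195), lost without either si-NC or either si-RAB23-9 library (0.0613 to 0.113), and with si-RAB23-1 it was -0.12 (limma adjusted p = 0.180). CDKN1A with si-RAB23-9 had a difference of -0.21 with a 95% interval from -0.35 to -0.07 (limma adjusted p = 0.0688). It was called under 7 of the 15 alternative settings, among them both fits on recovered reads and the fits without si-RAB23-1 replicate 1 (0.0421) or 2 (0.0422). Of the interferon list, 15 of 18 tested genes rose with si-RAB23-9 and 2 with si-RAB23-1, where 7.56% and 8.13% of all genes tested rose. Whether this bears on the p53 targets was not tested.

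The siRNAs were also compared directly with each other, since a call against si-NC with only 1 of them does not show that they differ. The fit was the same, so the si-NC libraries still entered the estimate of the spread. With si-RAB23-9, 8 of 28 p53 targets were higher (28.6%) and 2 lower (7.14%) than with si-RAB23-1. Over all genes tested limma called 11.1% higher, 9.89% lower and 21% in either direction. The median difference was 0.09, against 0.00 over all genes. TP53INP1 differed most, at 0.83 ± 0.0661 (limma adjusted p = 0.00218), followed by BTG2 at 0.78 ± 0.0767 (0.00352). TRIAP1 was higher by 0.53 ± 0.0590 (limma adjusted p = 0.00487). PLK2 was lower by -0.57 ± 0.0563 (limma adjusted p = 0.00355) and RRM2B by -0.38 ± 0.0474 (0.00659). These 5 calls were kept in all 6 fits that left out 1 library.

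The calls of the remaining 5 differences between the siRNAs were not kept in every fit that left out 1 library. All 5 differences kept their sign in those fits. CDKN1A was higher with si-RAB23-9 by 0.44 ± 0.0577 (limma adjusted p = 0.00727, and 0.0541 without si-RAB23-9 replicate 2). SESN2 was higher by 0.39 ± 0.0639 (limma adjusted p = 0.0137), lost without si-RAB23-9 replicate 1 (0.0577) or 2 (0.0815). FDXR, the reductase that passes electrons to mitochondrial ferredoxin, had 16.0 and 16.5 FPKM under si-NC, 12.6 and 14.8 under si-RAB23-1 and 18.1 and 18.7 under si-RAB23-9. The 3 groups did not overlap, with si-NC in the middle. Its direct difference was 0.40 ± 0.0730 (limma adjusted p = 0.0179), lost without si-RAB23-9 replicate 1 (0.0733) or 2 (0.0951).

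BBC3, a BCL2 antagonist that starts mitochondrial apoptosis, had 7.21 and 7.75 FPKM under si-NC, 5.62 and 7.09 under si-RAB23-1 and 8.24 and 9.37 under si-RAB23-9. The libraries with si-RAB23-1 were lowest and those with si-RAB23-9 highest. The direct difference of BBC3 was 0.42 ± 0.110 (limma adjusted p = 0.0469), kept only without si-RAB23-1 replicate 2, the others giving 0.0778 to 0.198. XPC, which recognises bulky DNA damage, had 4.63 and 5.13 FPKM under si-NC, 4.30 and 4.39 under si-RAB23-1 and 5.22 and 5.30 under si-RAB23-9, again in 3 groups that did not overlap. The direct difference of XPC was 0.23 ± 0.0581 (limma adjusted p = 0.0442) and was lost in each of the 6 fits without 1 library (0.0545 to 0.178). Genes on the opposite strand, LSM3 among them, share 30.4% of the exonic bases of XPC, and whether the counting used strand is not given, so its reads are uncertain.

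For MDM2, GDF15 and ZMAT3 the siRNAs were close to each other. The difference of si-RAB23-9 from si-RAB23-1 was 0.06 for MDM2 (95% interval from -0.03 to 0.16), 0.03 for GDF15 (-0.18 to 0.24) and -0.01 for ZMAT3 (-0.14 to 0.12). GADD45A had -0.09 (-0.19 to 0.01). These intervals do not show that the siRNAs act alike on these genes, only how far apart they could be.

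Of the 28 genes tested, 12 were called in none of the 3 comparisons, with differences of up to 0.20 in size and limma adjusted p-values of at least 0.0736. They included 6 of the 8 genes of cell death. How many of all genes tested were called in none is not given here. Of all genes limma called 15.4% with si-RAB23-1, 13.3% with si-RAB23-9 and 21% between the siRNAs, so most were not called in a given comparison. BAX, which permeabilises mitochondria, was at 37.6 and 37.0 FPKM under si-NC, 35.9 and 38.9 under si-RAB23-1 and 40.9 and 41.4 under si-RAB23-9. Both si-RAB23-9 libraries were above the other 4, but the difference from si-NC of 0.14 missed the threshold (95% interval from 0.02 to 0.25, limma adjusted p = 0.110). TNFRSF10B, a receptor for the death ligand TRAIL, had a similar layout, at 35.2 and 34.0, 37.6 and 34.6, and 38.7 and 38.8 FPKM in the same order, with a difference of 0.16 for si-RAB23-9 (limma adjusted p = 0.0857).

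FAS, whose promoter pair is printed above, was at 2.15 and 2.36 FPKM under si-NC, 2.10 and 2.29 under si-RAB23-1 and 2.56 and 2.57 under si-RAB23-9. Its si-RAB23-9 libraries were highest, with a difference from si-NC of 0.13 (95% interval from -0.05 to 0.32). DDB2, which holds the pair without a mismatch, had 10.4 and 11.5 FPKM under si-NC, 10.1 and 10.9 under si-RAB23-1 and 11.1 and 11.2 under si-RAB23-9. Its si-NC libraries overlapped both siRNA groups, while those under si-RAB23-1 lay below those under si-RAB23-9. Its differences from si-NC were -0.06 (-0.21 to 0.10) and 0.03 (-0.13 to 0.18). AEN, a nuclease of apoptosis that holds the pair with 2 mismatches, had differences from si-NC of -0.06 and -0.05, and its groups overlapped as well. PHLDA3, an inhibitor of AKT, differed by -0.20 with si-RAB23-1 (limma adjusted p = 0.0949), and SESN1 by -0.18 between the siRNAs (limma adjusted p = 0.0736). PMAIP1, PLK3, POLH, PPM1D and FBXO22 were the other genes called nowhere. POLH, the polymerase that copies past ultraviolet lesions, had 7.58 and 6.22 FPKM in its si-RAB23-9 libraries and 7.47 to 8.03 in the other 4.

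The regulators of p53 moved in few places and at about the share of all genes against si-NC. Of 36 regulators, all tested, 3 rose and 2 fell with si-RAB23-1 (13.9%), and 3 rose and 2 fell with si-RAB23-9 (13.9%). Between the siRNAs 6 were higher and 3 lower with si-RAB23-9 (25%, where 21% of all genes were called). Protein levels and activities were not measured here.

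The p53 relatives TP63 and TP73 differed between the siRNAs in opposite directions. TP63 had 14.2 and 14.6 FPKM under si-NC, 19.7 and 19.1 under si-RAB23-1 and 12 and 11.4 under si-RAB23-9. The groups did not overlap. TP63 rose with si-RAB23-1 by 0.40 ± 0.0438 (limma adjusted p = 0.00574) and was lower with si-RAB23-9 than with si-RAB23-1 by -0.68 ± 0.0438 (0.00142), both kept in all fits without 1 library. Its difference with si-RAB23-9 from si-NC was -0.28 (limma adjusted p = 0.0156), lost without either si-NC or either si-RAB23-9 library (0.0613 to 0.101). TP73 had 2.96 and 3.09 FPKM under si-NC, 2.59 and 2.55 under si-RAB23-1 and 3.8 and 4.02 under si-RAB23-9, so its order was the reverse of that of TP63. It was higher with si-RAB23-9 than with si-RAB23-1 by 0.46 ± 0.0586 (limma adjusted p = 0.00695, and 0.0553 without si-RAB23-9 replicate 2). Against si-NC it rose with si-RAB23-9 by 0.29 (limma adjusted p = 0.0316), lost without either library of either group (0.109 to 0.170). MDM4, the partner of MDM2 that blocks p53 transactivation, had 6.89 and 7.79, 7.07 and 6.58, and 6.35 and 6.14 FPKM in the same order and was called in none of the comparisons.

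**Figure D4:**
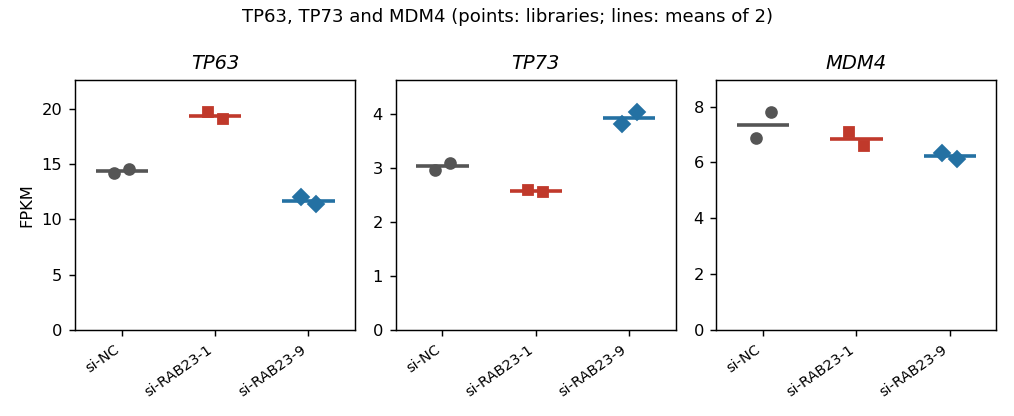
FPKM of TP63, TP73 and MDM4 in each library by group, each panel on its own axis from 0, with lines at the means of 2 libraries. The TP63 libraries with si-RAB23-1 (19.7 and 19.1) lie above and those with si-RAB23-9 (12 and 11.4) below si-NC, and the TP73 libraries lie the other way round.

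Among the other regulators, PPP1R13L (iASPP, an inhibitor of p53) was higher by 0.35 and HDAC1 by 0.17 with si-RAB23-1, while the acetyltransferase genes KAT5 and CREBBP were lower by -0.24 and -0.22 (limma adjusted p = 0.0149, 0.0162, 0.0485 and 0.0251). HDAC1 rose with si-RAB23-9 too, by 0.31, as did BRD7 by 0.22, and RPL5, a ribosomal protein that can inhibit MDM2, fell by 0.25 on the log2 scale. Between the siRNAs TOPORS (0.31), CREBBP (0.23) and SIRT1 (0.22) were higher with si-RAB23-9, and PPP1R13L (-0.49) and RPL5 (-0.28) lower. The direct calls of PPP1R13L and RPL5 were kept in all fits without 1 library. Each other call named here was lost without at least 1: HDAC1 with si-RAB23-9 only without si-RAB23-9 replicate 2 (0.0510), and HDAC1 and PPP1R13L with si-RAB23-1 without si-NC replicate 1 or 2 (up to 0.0981 and 0.0889). The calls of BRD7 and RPL5 against si-NC failed when any si-NC or si-RAB23-9 library was left out (up to 0.172 and 0.0778), and those of KAT5 and CREBBP without 5 of the 6 libraries (all but si-RAB23-1 replicate 2, up to 0.210 and 0.134). Between the siRNAs CREBBP was lost without si-RAB23-1 replicate 1 or either si-RAB23-9 library (up to 0.118), TOPORS without any library but si-RAB23-9 replicate 2 (up to 0.116) and SIRT1 without any library (up to 0.145).

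A wider list of 60 other p53 targets, of which 49 were tested, did not lean to 1 side. With si-RAB23-1, 9 rose and 7 fell, and with si-RAB23-9, 8 rose and 6 fell, with median differences of -0.01 and 0.07. The shares called, 32.7% and 28.6%, were above the 15.4% and 13.3% of all genes. Between the siRNAs 13 were higher and 12 lower with si-RAB23-9 (51%), where 21% of all genes were called, 11.1% higher and 9.89% lower. With si-RAB23-1 the large increases included those of the stress factor ATF3 (0.66), IGFBP3 (0.57), which binds insulin-like growth factors, and PERP (0.57), a desmosome protein that is also a known p63 target. The largest decreases with si-RAB23-1 were in the ephrin receptor EPHA2 (-0.93), TP53I11 (-0.60), the ceramidase ACER2 (-0.52) and the adhesion protein NINJ1 (-0.50). Of these calls ACER2 and NINJ1 were lost without si-NC replicate 1 or 2 (limma adjusted p up to 0.0854 and 0.0632) and TP53I11 without si-NC replicate 1 (0.0680). The calls of ATF3, IGFBP3, PERP and EPHA2 were kept in all 6 fits without 1 library.

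With si-RAB23-9 the large increases of this list included TRIM22 (0.68), IGFBP3 (0.51) and PML (0.46). TRIM22 and PML are also known interferon-induced genes. The largest decreases were in the death receptor genes TNFRSF10D (-0.33) and TNFRSF10A (-0.30), ASCC3 (-0.29) and the growth factor gene TGFA (-0.26). Of the calls named here with si-RAB23-9 only that of IGFBP3 was kept in all fits without 1 library. TNFRSF10D was lost without si-NC replicate 1 or 2 or si-RAB23-9 replicate 2 (limma adjusted p up to 0.0740). The other 5 failed when any si-NC or si-RAB23-9 library was left out (0.0586 to 0.162). Directly, EPHA2 (0.79), TP53I11 (0.75), PML (0.50) and NINJ1 (0.48) were higher and ATF3 (-0.52), TGFA (-0.44), PERP (-0.33) and TNFRSF10A (-0.32) lower with si-RAB23-9 than with si-RAB23-1. Of these NINJ1 was lost without si-RAB23-9 replicate 2 (0.0537), ATF3 without either si-RAB23-9 library (up to 0.0569) and TNFRSF10A without si-RAB23-9 replicate 1 (0.0625).

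Some of the p53 targets that fell carry short 3′ UTR sequences that set genes apart in each siRNA's comparison. An siRNA can lower transcripts other than its target by pairing of its seed with their 3′ UTR, and the siRNA sequences are not given, so the words used here are the 7-mers GACATAT (for si-RAB23-1) and AAGTTAA (for si-RAB23-9), which earlier results on these libraries had singled out. They were therefore chosen on these values, and their counts are a description only. GACATAT lay in the 3′ UTR of 4 of the 28 tested p53 targets, and 3 of the 4 fell with si-RAB23-1 (75%), against 6 of 24 without it (25%). Over all genes tested that have an annotated 3′ UTR, 236 of 906 with the word fell (26.1%) and 710 of 9990 without it (7.11%). AAGTTAA lay in 9 tested p53 targets, of which 3 fell with si-RAB23-9 (33.3%), against 4 of 19 without it (21.1%). Over all genes these shares were 346 of 1953 (17.7%) and 378 of 8943 (4.23%). The length of the 3′ UTRs was not matched between these sets.

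Sites are shown for TRIAP1, ZMAT3, MDM2 and CCNG1, which fell with the siRNA in question, and for FBXO22, which carries GACATAT and was not called. Those of TP53INP1 and RRM2B are not shown. AEN, FAS, FBXO22, PMAIP1, POLH and PPM1D also carry AAGTTAA, at sites not shown, and were not called with si-RAB23-9. Their differences from si-NC with si-RAB23-9 were -0.05, 0.13, 0.03, -0.07, -0.19 and 0.10 in that order. The word is in capitals within its flanks, on the strand of the gene and in GRCh38 coordinates.
TRIAP1 at chr12:120444500-120444529, - strand: tctgctgcaaaaGACATATacactgtactg
ZMAT3 at chr3:179019557-179019586, - strand: agaaaattttcaGACATATatcaaagttga
FBXO22 at chr15:75938463-75938492, + strand: gacattaaactaGACATATactttaactca
MDM2 at chr12:68841712-68841741, + strand: gtgaattcagaaAAGTTAAttcagaaattt
MDM2 at chr12:68848693-68848722, + strand: caaatctcttcaAAGTTAAgctttttgttt
MDM2 at chr12:68849001-68849030, + strand: gcacccagcccaAAGTTAAgcattttttaa
CCNG1 at chr5:163444988-163445016, + strand: tacctttcaataAAGTTAAtgaaattcaa
TP53INP1, the gene with the largest decrease with si-RAB23-1, is the remaining carrier of GACATAT. RRM2B, the gene with the largest decrease with si-RAB23-9, carries AAGTTAA at 3 sites. CDKN1A, GADD45A, GDF15, TP53I3, SESN2 and MDM2 fell with si-RAB23-1 without the word GACATAT. TP53INP1, GDF15, GADD45A and ZMAT3 fell with si-RAB23-9 without the word AAGTTAA. FBXO22 differed from si-NC by -0.11 with si-RAB23-1 (95% interval from -0.23 to 0.01). Whether an siRNA acts at any of these sites was not tested.

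**Figure D5:**
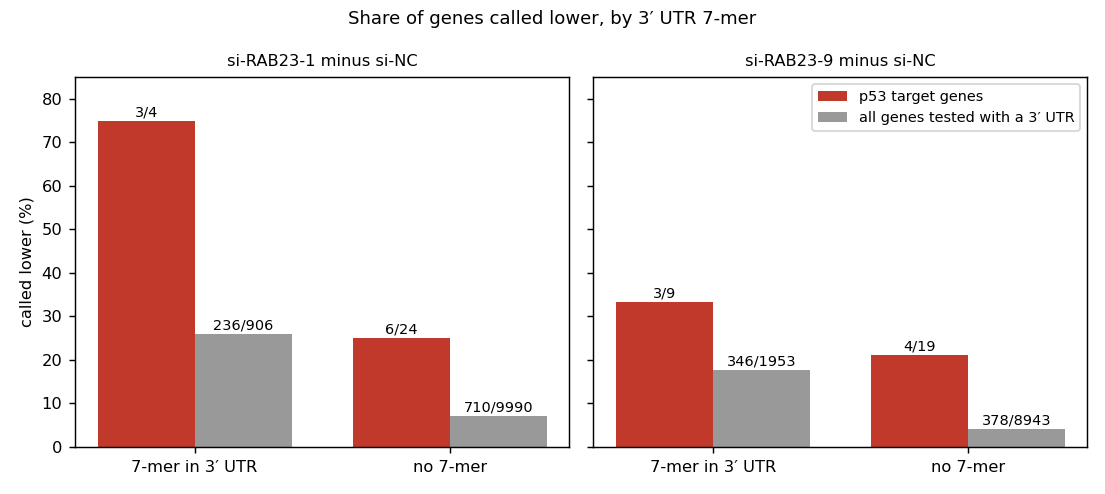
Share of genes called lower (percent) with a siRNA against si-NC, split by whether a 3′ UTR carries the 7-mer of that comparison, in red for the p53 target genes and in grey for all genes tested with a 3′ UTR. Numbers above the bars are genes called lower of genes in the set, and the red bars stand at 75% and 25% for si-RAB23-1 and at 33.3% and 21.1% for si-RAB23-9. The 7-mers were chosen on the values of these libraries, so the bars are a description only.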

How the data were processed

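Total RNA of 6 KYSE30 libraries had been sequenced, and the authors deposited 1 table of FPKM values per gene. Per the submitters' processing notes, which give no roles, the tools were STAR 2.5.1b, RSEM 1.2.29, Trimmomatic 0.36, FastQC and edgeR 3.8.5, and the build was hg19. Gene starts and ends in the table equal GENCODE release 29 on GRCh38 for all 58735 genes, so coordinates are given on GRCh38. FPKM times gene length gave whole reads within 0.01 read for 100% of values. In 27 cases a symbol turned into a date was restored by gene ID.

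limma 3.58.1 in R 4.3.3 was fitted to log2(FPKM + 1) of all 6 libraries, with 1 mean per group, 3 residual degrees of freedom and eBayes moderation that follows abundance. Tests covered the 14352 genes that reached 1 FPKM in 2 or more libraries and were two-sided, with Benjamini-Hochberg adjustment over all of them. The procedure was also run on simulated data. The changes set there were larger than most of those reported here, so that run says little about small changes. Alternatives were another pseudocount, filter, scaling or count weighting (voom on recovered reads), a replicate block and leaving out each library.

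The p53 target genes and gene lists were chosen with earlier results of these data known. All 30 are named, in full if called in any comparison. Of the regulators and other targets up to 4 per direction are named, by largest change, with TP63, TP73 and MDM4, and 2 genes of these lists are not reported here. Promoters are from RefSeq, and 3′ UTRs from the protein-coding transcripts of the GENCODE 29 basic set.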

Additional observations from a re-analysis of the deposited data

Results flagged for a closer look

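For 5 p53 targets the differences from si-NC had opposite signs with the 2 siRNAs. For each of them limma's direct test of si-RAB23-9 against si-RAB23-1 called the gap. How many of all genes tested meet this rule is not given here, so the 5 genes have no background beside them. The direct test by itself called 21% of all genes tested. BTG2 differed by 0.78 between the siRNAs, with -0.05 (si-RAB23-1) and 0.73 (si-RAB23-9) against si-NC. BBC3 differed by 0.42 (-0.21 and 0.21), FDXR by 0.40 (-0.23 and 0.17), SESN2 by 0.39 (-0.32 and 0.07) and XPC by 0.23 (-0.14 and 0.09). The opposite signs are uncertain for all 5 genes, since each has at least 1 limma interval against si-NC that spans 0. The limma interval of BTG2 with si-RAB23-1 against si-NC ran from -0.24 to 0.14. That of SESN2 with si-RAB23-9 against si-NC ran from -0.09 to 0.23, and that of FDXR from -0.01 to 0.35. BBC3 had intervals from -0.48 to 0.06 with si-RAB23-1 and from -0.06 to 0.48 with si-RAB23-9. Those of XPC ran from -0.28 to 0.008 and from -0.05 to 0.24 in the same order. The direct call of BTG2 alone among these 5 genes was kept in all 6 fits without 1 library. The difference of SESN2 from si-NC with si-RAB23-1 and that of BTG2 with si-RAB23-9 were the only differences from si-NC of these 5 genes that were called.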

How the results depend on the processing

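None of the results for the p53 targets changed sign with a call under any of the 15 alternatives. Leaving out 1 library gave 1 to 2 genes higher and 4 to 11 lower with si-RAB23-1, 1 to 3 higher and 1 to 8 lower with si-RAB23-9, and 3 to 8 higher and 2 to 3 lower between the siRNAs, with the lone library of a group assumed to vary like the others. Whenever the library left out belonged to a compared group, the share called over all genes was lower too. The lower counts of p53 targets in those fits are therefore not particular to them. Genes higher between the siRNAs came to 5 rather than 8 with no filter. Genes higher with si-RAB23-9, 1 in the reported fit, came to 2 with a mean FPKM of at least 5, 3 with only the 2 groups compared, 2 with voom on library totals and 2 with voom on median-of-ratios sizes. Genes lower with si-RAB23-1 came to 14 rather than 9 with voom on library totals, and genes lower between the siRNAs to 5 rather than 2 with voom on median-of-ratios sizes. Over all genes the share called, 15.4% with si-RAB23-1, 13.3% with si-RAB23-9 and 21% between the siRNAs, ran from 2.95% to 29.8%, from 1.93% to 27.4% and from 4.14% to 37.3% over the alternatives. The median difference of the p53 targets ran from -0.17 to -0.10 with si-RAB23-1, from -0.07 to 0.01 with si-RAB23-9 and from 0.07 to 0.13 between the siRNAs. With the replicate number as a block the 6 counts were 1 and 9, 1 and 7, and 7 and 2, the lost call being XPC. Deviations of same-numbered libraries correlated at -0.06, -0.02 and 0.06 across genes, so the numbers were not taken as pairs. Testing with no filter ended the calls of GDF15 with both siRNAs, of TP53I3 and SESN2 with si-RAB23-1, of CCNG1 with si-RAB23-9 and of BBC3, FDXR and XPC between the siRNAs. Quantile normalization ended those of BBC3 and XPC between the siRNAs, and the fit of only the 2 groups compared ended these and that of SESN2 with si-RAB23-1. With 2 libraries per group the standard errors of these genes ran from 0.0385 to 0.110 on the log2 scale, which limits the size of change that could be called.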
